A study of Saccharomyces cerevisiae with 32 samples.

Results

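The first residue of the CRIPT ligand, a lysine written K1, was replaced by each of the other amino acids, alone and together with single substitutions in the PDZ domain that binds the ligand. Members were the scored sequences without a stop codon whose ligand differed from wild type at position 1 only and whose PDZ domain carried 0 or 1 substitution. To these were added the K1 single substitutions of the 2 libraries that varied the ligand alone and included its position 1. The rule used sequences and no measured value, and it found 30940 of the 470640 scores of the series.

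PDZ domains are small interaction modules that hold the C-terminal end of a partner protein in a groove between a strand and a helix. The last residues of the ligand make the conserved contacts: a carboxylate-binding loop takes the C terminus, a hydrophobic pocket takes the last side chain, and a histidine at the start of the second helix contacts the serine or threonine 2 places before the end. Residues further upstream lie at the edge of the groove, where contacts are less fixed and charge can matter. PSD95 is a scaffold protein of excitatory synapses, PDZ3 is the third of its PDZ domains and a standard model of the family, and CRIPT is a partner protein whose C terminus it binds.

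The measurements came from yeast of strain BY4741 grown in competition, in a protein complementation assay in which binding between PDZ3 and the ligand restores growth in methotrexate. Each library had 3 biological replicates, with an input culture grown for 5 generations without drug and an output culture grown for about 5 generations with 200 µg/mL methotrexate. K1 variants occurred in 3 libraries with 24 input and output samples in all. These were the PDZ3-CRIPT library, which per the labels was made in 2 blocks and held single substitutions and pairs of 1 substitution in each partner, the pairwise CRIPT library, with 1 or 2 ligand substitutions on wild-type PDZ3, and the N-terminal CRIPT library, which varied ligand positions 1 to 4. Growth reports the amount of complex in yeast and not an affinity.

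The wild-type ligand and the replacements on which the results turn are shown here, with position 1 in capitals and the unchanged residues in lower case. Position 1 is -7 in the numbering that gives 0 to the last residue. The acidic and tryptophan ligands gave the lowest scores and the arginine ligand the highest. In the PDZ3-CRIPT library the asparagine ligand had a milder effect alone than in most pairs, a difference that was not tested.
wild type: Knykqtsv
K1R: Rnykqtsv
K1D: Dnykqtsv
K1E: Enykqtsv
K1W: Wnykqtsv
K1N: Nnykqtsv
The second lysine of the ligand, K4, lies at -4 and is visible in each line as the only k.

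Each deposited score is 1 value per amino acid sequence with its error, pooled over replicates by the authors, so ± below is that deposited error and no replicate spread could be computed. The wild-type score was -0.000512 ± 0.00383 in the PDZ3-CRIPT library, 0.0314 ± 0.0140 in the pairwise library and -0.0412 ± 0.0552 in the N-terminal library. Sequences with a stop codon had median scores of -0.796 and -0.799 in the PDZ3-CRIPT table, -0.893 in the pairwise library and -0.807 in the N-terminal library. Higher scores therefore mean more growth in methotrexate. The PDZ3-CRIPT table is made of 2 listings. In listing A the changed PDZ3 residue is between 1 and 50, and in listing B between 51 and 100. Only listing B holds the wild type, whose score served for both. Listing A held 19 K1 single substitutions and 13378 pairs, 74.1% of the possible pairs. Listing B held 19 and 17496, or 96.9%. Listing A had 15 K1 pairs in all at PDZ3 residues 44 to 50.

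Replacing K1 on wild-type PDZ3 lowered growth by a small amount for nearly every residue. In listing A 19 of 19 single substitutions scored below wild type, in listing B 17 of 19 and in the pairwise library 18 of 19, at an adjusted p of 0.05 from the difference over its combined error. These counts stand against 79.7%, 74.9% and 89.3% of all sequences of the same tables that scored below wild type. Those shares are not of single substitutions alone, since they include sequences with 2 substitutions or a stop codon. No K1 single substitution scored above wild type in any table, where 1.12%, 1.99% and 0.179% of all sequences did. The mean difference from wild type over the 19 substitutions was -0.0995 ± 0.00400 in listing A and -0.0716 ± 0.00400 in listing B. This is 12.5% and 8.97% of the distance from wild type to the stop level. The pairwise library gave -0.113 ± 0.0148, or 12.2%.

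The acidic replacements were among the lowest. K1D, which puts aspartate in place of lysine, scored -0.185 ± 0.00412 in listing A, -0.165 ± 0.00457 in listing B and -0.209 ± 0.0233 in the pairwise library. K1E, with glutamate, scored -0.179 ± 0.00406, -0.150 ± 0.00448 and -0.178 ± 0.0209. Both reverse the charge of the native side chain, and both lay below wild type in the 3 sets.

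Tryptophan, the bulkiest residue and an uncharged one, scored in the same range as the acidic residues. K1W gave -0.191 ± 0.00473 in listing A, -0.156 ± 0.00485 in listing B and -0.171 ± 0.0238 in the pairwise library. The other aromatic residues came next and were less low. K1F scored -0.130 ± 0.00445, -0.101 ± 0.00460 and -0.119 ± 0.0248. K1Y scored -0.125 ± 0.00411, -0.0903 ± 0.00451 and -0.149 ± 0.0242. Residues of this class share a large planar side chain, and all 3 lay below wild type in the 3 sets.

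At the other end of the order was arginine, which keeps the positive charge. K1R scored -0.0312 ± 0.00397 in listing A, -0.00145 ± 0.00442 in listing B and 0.0137 ± 0.0164 in the pairwise library. It passed the test against wild type in listing A and missed it in listing B and in the pairwise library. In listing B its difference from wild type was -0.000932 ± 0.00585. Histidine, the other residue of the basic class, which is only partly charged at neutral pH, was lower. K1H scored -0.0791 ± 0.00419, -0.0534 ± 0.00447 and -0.0448 ± 0.0241.

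The aliphatic, polar and backbone-altering residues filled the middle. Among the aliphatic residues the lowest in each set was alanine, with K1A at -0.105 ± 0.00391, -0.0855 ± 0.00440 and -0.0730 ± 0.0182. K1M scored -0.101 ± 0.00396, -0.0576 ± 0.00444 and -0.0690 ± 0.0224. K1L scored -0.0943 ± 0.00426, -0.0633 ± 0.00452 and -0.0646 ± 0.0167. Methionine and leucine have longer side chains than alanine and had higher values in each set, but the difference between K1M and K1A was less than its error in listing A and in the pairwise library. K1I scored -0.0882 ± 0.00404, -0.0545 ± 0.00441 and -0.0608 ± 0.0216. K1V scored -0.0805 ± 0.00401, -0.0603 ± 0.00442 and -0.0552 ± 0.0180. The aliphatic mean was -0.0939, -0.0643 and -0.0645, against -0.182, -0.158 and -0.193 for the acidic pair.

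Polar residues scored close to the aliphatic ones. K1S scored -0.0892 ± 0.00375, -0.0630 ± 0.00431 and -0.0602 ± 0.0169. K1Q scored -0.0845 ± 0.00431, -0.0668 ± 0.00458 and -0.0725 ± 0.0211. K1C scored -0.0824 ± 0.00475, -0.0580 ± 0.00486 and -0.0582 ± 0.0264. Threonine was the mildest of the class after asparagine in both listings. K1T scored -0.0712 ± 0.00362, -0.0390 ± 0.00426 and -0.0301 ± 0.0183. K1N scored -0.0526 ± 0.0128 in listing A, -0.0222 ± 0.0104 in listing B, where it missed the threshold, and -0.0853 ± 0.0234 in the pairwise library. Its deposited error in each listing was more than that of the other 18 substitutions, which lay between 0.00362 and 0.00486.

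Proline and glycine, which restrict or free the backbone, were among the mildest replacements. K1P scored -0.0664 ± 0.00380, -0.0423 ± 0.00434 and -0.0380 ± 0.0204. K1G scored -0.0652 ± 0.00414, -0.0410 ± 0.00448 and -0.0236 ± 0.0164. The proline ligand scored above 14 of the 18 other K1 ligands in listing A and 12 in listing B, and below 1 in each, by the test of residue against residue.

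The N-terminal library scored 9 K1 single substitutions with errors from 0.0384 to 0.0834, several times those of the PDZ3-CRIPT table. Its scores ran from -0.104 for K1Y to -0.00409 for K1T, with a median of -0.0607. None differed from wild type in either direction, whereas 90.8% of all sequences of that library scored below it and 0.00% above. The sequences behind this share include those with several substitutions and 14920 with a stop codon. The mean difference from wild type was -0.0209 ± 0.0588, so an effect of the size seen in the other tables was not detectable there. Neither acidic residue, K1W nor K1R was scored alone in that library.

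All 19 K1 single substitutions scored lower in listing A than in listing B, and 18 passed the test of that difference, against 70.9% of all 151 ligand single substitutions that both listings held. The difference had a median of -0.0283 and ran from -0.0437 to -0.0176. It is about as large as the effect of the mildest replacements, and for K1R it is close to the whole effect in listing A. The deposited errors therefore do not cover the difference between the listings of 1 ligand. With an error added to match it over all ligand single substitutions (0.0485), 3 of 19 passed the threshold in each listing and 4 of 19 in the pairwise library. With an error added to match the K1 substitutions alone (0.0196), 17, 10 and 14 did. The order of residues moved little: across the 19 residues the 2 listings correlated with Pearson's r = 0.989 and Spearman's rho = 0.940, given as a description, since the listings share the assay and the authors' processing.

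The residues were set against each other within each table. Of the 171 pairs of new residues at K1, 134 differed in listing A and 130 in listing B, or 78.4% and 76.0%, against 91.3% and 89.5% of such pairs at the other ligand positions. In the pairwise library, with its larger errors, 69 of 171 (40.4%) differed, against 57.1%, and in the N-terminal library 0 of 36, against 14.4%. K1R scored above 17 of the 18 other K1 ligands in both listings and above 14 in the pairwise library. In both listings the one it did not exceed past the threshold was K1N. Neighbours in the order mostly could not be told apart: 2 of the 18 neighbouring pairs differed in each listing and 0 in the pairwise library. One of these gaps recurred, between K1E and K1F, at 0.0487 ± 0.00602 in listing A and 0.0491 ± 0.00642 in listing B. Below it lay aspartate, glutamate and tryptophan, and no neighbours among these 3 passed the threshold. The mean of K1D and K1E differed from K1R by -0.150 ± 0.00491, -0.156 ± 0.00546 and -0.207 ± 0.0227 in the 3 sets, and each difference passed the threshold.

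The ligand has a second lysine, K4, closer to the C terminus, so the same replacement could be compared at both. The K1 version scored higher for 18 of 19 new residues in listing A, 18 of 19 in listing B and 18 of 19 in the pairwise library. The median difference was 0.209, 0.219 and 0.239. Of all comparisons of 1 new residue at 2 ligand positions, 97.8%, 96.8% and 82.6% passed the test in either direction. In the N-terminal library 1 of 4 residues scored higher at K1, against 27.3% of all comparisons there. The largest gap was for glycine: K1G exceeded K4G by 0.462 ± 0.00646, 0.464 ± 0.00706 and 0.535 ± 0.0249. The smallest past the threshold in favour of K1 was for glutamine, at 0.0821 ± 0.00570, 0.0785 ± 0.00629 and 0.0790 ± 0.0286.

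Arginine was the exception at both lysines. K1R minus K4R was -0.0127 ± 0.00557 in listing A, 0.00690 ± 0.00617 in listing B and 0.00743 ± 0.0222 in the pairwise library. The difference passed the threshold in listing A alone, where K1R was the lower of the 2 ligands. Across PDZ3 backgrounds of listing B the median of that difference was 0.000652, and 463 of 917 backgrounds lay above 0, while in listing A it was -0.00892, with 281 of 671 above 0. For glycine the median was 0.454 in listing B, with 868 of 872 backgrounds above 0, and 0.441 in listing A, with 627 of 629.

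Between the lysines lie N2 and Y3. The same residue scored lower at K1 than at N2 in 18 of 18 comparisons in each listing and 13 of 18 in the pairwise library, with medians of -0.0785, -0.0860 and -0.0901. Against Y3 the K1 version was higher in 13 of 18, 14 of 18 and 7 of 18 and lower in 3, 3 and 2. Against T6 at -2, where the conserved histidine contact is made, the K1 version was higher in 17 of 17, 18 of 18 and 18 of 18, with medians of 0.647, 0.670 and 0.717.

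Across PDZ3 backgrounds the effect of a K1 substitution was taken as the score of the pair minus the score of its PDZ3 substitution alone. Its median was -0.0903 over 13329 pairs of listing A and -0.0739 over 17490 of listing B. The pair scored lower than its PDZ3 single substitution in 5401 pairs (40.5%) and 6742 pairs (38.5%), against 59.6% and 62.2% of pairs over all ligand positions. It scored higher in 31 pairs (0.233%) and 42 pairs (0.240%), against 1.08% and 1.53%. By the same measure 5.55% and 3.96% of pairs with an N2 substitution were lower, 50.8% and 54.2% with a Y3 substitution, and 84.8% and 88.4% with a K4 substitution. The difference was below 0 in 12416 of the 13329 K1 pairs and 15971 of the 17490. The median error of the difference was 0.0469 and 0.0397, so a K1 effect of median size often could not pass the threshold in a single pair.

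Over PDZ3 backgrounds the acidic ligands and K1W again had the lowest medians and K1R the highest. K1D had a median effect of -0.178 over 701 backgrounds of listing A, with quartiles of -0.220 and -0.148, and -0.172 over 921 of listing B, with quartiles of -0.205 and -0.141. It was lower than the PDZ3 single substitution in 80.9% and 87.6% of backgrounds. K1E had medians of -0.165 and -0.158 and was lower in 80.5% and 86.6%. K1W had medians of -0.181 and -0.161 and was lower in 77.1% and 79.3%. The effect of each of these 3 ligands was below 0 in nearly all backgrounds, for K1D in 689 of 701 and 900 of 921.

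K1R had a median effect of -0.0253 over 699 backgrounds of listing A and -0.00267 over 923 of listing B. It was lower than the PDZ3 single substitution in 5.72% and 1.84% of backgrounds and higher in 0.715% and 1.19%. Its quartiles in listing B, -0.0323 and 0.0226, lay on either side of 0, and 493 of 923 backgrounds were below it. The upper quartile of K1D lay under the lower quartile of K1R in both listings.

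Between these ends K1F had medians of -0.130 and -0.105 and K1Y of -0.122 and -0.101. K1A followed with -0.0973 and -0.0882, and then K1M with -0.0904 and -0.0717, K1L with -0.0863 and -0.0677, K1I with -0.0812 and -0.0618 and K1V with -0.0801 and -0.0646. The polar ligands had medians of -0.0889 and -0.0737 for K1N, -0.0780 and -0.0672 for K1S, -0.0769 and -0.0699 for K1Q, -0.0807 and -0.0609 for K1C, and -0.0639 and -0.0428 for K1T. The aliphatic and polar ranges overlap in both listings. K1H had -0.0704 and -0.0514, K1P -0.0540 and -0.0419, and K1G -0.0530 and -0.0452. The medians of the 19 residues correlated between the listings with Pearson's r = 0.991 and Spearman's rho = 0.949, a description over residues that share the assay, and all 19 were lower in listing A by a median of -0.0186.

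K1N stood apart in how its single substitution compared with its pairs. Its single effect was -0.0521 ± 0.0134 in listing A and -0.0217 ± 0.0111 in listing B. Over near-neutral PDZ3 backgrounds, those with a single score within 0.05 of wild type, its median effect was -0.0891 over 329 backgrounds and -0.0686 over 548. The single effect therefore lay above this median by 0.0370 and 0.0468, while for the other 18 ligands the gap ran from -0.0148 to 0.0117 over both listings. In the order of medians over backgrounds K1N stood beside the aliphatic ligands, and in the order of single substitutions just under K1R. The pairwise library gave -0.117 ± 0.0273 for the same ligand. Since the curve described below takes the single effect as its input, the median deviation of K1N pairs from it was -0.0334 and -0.0389, against -0.00547 to 0.0125 for every other ligand. These values were noticed in the tables and carry no test.

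The K1 effect was smallest in PDZ3 backgrounds with scores close to the stop level, and it did not shrink steadily towards them. The PDZ3 single score enters both the grouping and the difference, so the 2 are not independent, and errors in it move both. In near-neutral backgrounds the median K1 effect was -0.0905 over 6324 pairs of listing A and -0.0718 over 10481 of listing B. In backgrounds whose own effect lay between -0.5 and -0.2 it was larger, at -0.0987 over 1823 pairs and -0.0839 over 1484. In backgrounds below -0.5 it was -0.0483 over 1322 pairs and -0.00835 over 1208. In backgrounds more than 0.05 above wild type it was -0.116 over 1062 pairs and -0.107 over 1878. The median error of the difference in the backgrounds below -0.5 was 0.0986 and 0.101.

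The gap between acidic and arginine ligands does not contain the PDZ3 single score. The mean of K1D and K1E minus K1R in the same background had a median of -0.145 over 301 near-neutral backgrounds of listing A and -0.159 over 544 of listing B. In backgrounds between -0.5 and -0.2 it was wider, at -0.158 over 89 and -0.192 over 77, and in those below -0.5 it was -0.0914 over 58 and -0.133 over 57. From near-neutral backgrounds to those below -0.5 the gap thus narrowed, as the K1 effect did. In backgrounds above 0.05 it was -0.146 over 54 and -0.156 over 94, and all of these 54 and 94 lay below 0.

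That acidic minus arginine gap was then compared, background by background, with the same gap on wild-type PDZ3. It could be formed for 640 PDZ3 substitutions of listing A and 899 of listing B, with medians of -0.146 and -0.163, and it lay below 0 in 624 and 888 of them. None differed from the gap on wild-type PDZ3 after adjustment (0.00% of each listing), with a lowest adjusted p of 0.810 and 0.994. An unadjusted p under 0.05 was found for 16 and 15. These are under the share of 0.05 that would pass if no gap differed and the errors matched the scatter. The median error of 1 gap was 0.0514 and 0.0451, and a change in 1 background had to be several times this error to pass.

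Substitutions that change the charge of PDZ3 gave gaps close to those of substitutions that do not. In listing A the median gap was -0.151 over 101 substitutions that made PDZ3 more negative by 1 charge, -0.147 over 403 that kept the charge and -0.137 over 120 that made it more positive by 1. In listing B the same medians were -0.167 over 159, -0.158 over 557 and -0.167 over 160. The quartiles of the 3 groups overlapped in each listing. At the 9 positions of listing A with a native aspartate or glutamate, substitutions that removed or reversed the charge gave a median effect of -0.173 for the acidic ligands and -0.0260 for K1R. Of these positions, D46 and E50 had 2 tested K1 pairs each, none with an acidic ligand or K1R, and so add nothing to these medians. At the 4 positions with a native lysine or arginine the values were -0.177 and -0.0256. In listing B they were -0.180 and -0.0146 at 6 acidic positions and -0.178 and -0.00407 at 6 basic ones. In each of these groups the upper quartile of the acidic ligands lay under the lower quartile of K1R.

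The K1 effect varied over a limited range between PDZ3 positions. Over the 43 PDZ3 positions of listing A with at least 50 K1 pairs the median effect ran from -0.116 to -0.0528, and over the 50 of listing B from -0.144 to -0.0363. The lowest medians of listing A were at I39 in strand beta3 (-0.116), I12 in strand beta1 (-0.103) and R7 in the N-terminal tail (-0.103). The highest were at G27 in the loop after strand beta2 (-0.0528), L21 of the carboxylate-binding loop (-0.0747) and E29 (-0.0767). Strands and loops are placed here from knowledge of the fold, and residue 1 is where the scored PDZ3 sequence starts.

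In listing B the highest medians were at H70, the histidine that contacts the ligand (-0.0363), I57 in strand beta4 (-0.0412) and A73 in the second helix (-0.0470). Substitutions at these positions were themselves costly, with median single effects of -0.507, -0.761 and -0.424. At G27 the same median was -0.661. The acidic and arginine ligands still separated there: at H70 the medians were -0.125 and 0.00312, at I57 -0.0988 and 0.0748, and at A73 -0.135 and 0.00585. The higher median at H70 was not particular to K1. In median effect H70 differed from the rest of listing B by 0.0382 for K1, 0.0309 for N2, 0.0600 for Y3 and 0.0994 for K4. The difference was 0.0856 for Q5, 0.0892 for S7, 0.551 for T6 and 0.410 for V8.

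The lowest medians of listing B were all at the C-terminal end of the scored domain, at F98 (-0.144), E99 (-0.136) and Y95 (-0.136). This end includes the third helix, an addition to the usual PDZ fold that lies outside the binding groove. The stretch is shown with its charged residues marked, and a role of their charge was not tested. At E93, E94 and E99 the acidic ligand median minus the K1R median was -0.151, -0.176 and -0.174. On wild-type PDZ3 the mean of K1D and K1E minus K1R was -0.156 in this listing. Acidic residues are in capitals in the first line and basic residues in the second.
PDZ3 residues 91 to 100, acidic: kpEEysrfEa
PDZ3 residues 91 to 100, basic: KpeeysRfea
Over residues 94 to 100 the median K1 effect was -0.129 over 2076 pairs, against -0.0693 over residues 51 to 93. In near-neutral backgrounds it was -0.120 against -0.0679. The shift was not particular to K1. Residues 94 to 100 differed from 51 to 93 by -0.0595 for K1, -0.0452 for N2, -0.0410 for Y3, -0.0475 for K4, -0.0477 for Q5 and -0.0575 for S7, and by 0.0515 and 0.0928 for T6 and V8, whose pairs lay near the stop level. The median error of the K1 difference was 0.0722 there against 0.0384. The part of this error in the shift was not tested. The K1 pairs of residues 94 to 100 also lay lower against the curve described next, with a median deviation of -0.0488 against 0.00522 over residues 51 to 93, although 2 of them passed the threshold on their own.

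Few K1 pairs departed past the threshold from what their 2 single effects gave together. An isotonic curve was fitted in each listing to the scores of all pairs as a function of the summed single effects, and each pair's deviation was divided by its combined error. Of 13329 K1 pairs in listing A 28 lay above the curve and 13 below, or 0.210% and 0.0975%, against 1.06% and 0.394% of pairs over all ligand positions. Of 17490 in listing B 4 lay above and 6 below, or 0.0229% and 0.0343%, against 0.666% and 0.149%. The median K1 effect was -0.0903 and -0.0739, and the median error of a pair minus its PDZ3 single substitution was 0.0469 and 0.0397. A departure as large as the K1 effect could therefore often miss the threshold. A pair that missed it was not shown to follow the curve. The count and its direction depended on the curve: with the product of the singles as shares above the stop level it was 16 above and 35 below in listing A and 5 and 53 in listing B, and with an error added to match the difference between the listings it was 0 in both.

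The pairs described next in listing A had the highest deviations relative to their errors, and some pairs with larger errors deviated by more in score, such as F38P with K1E at 0.301 and G42M with K1L at 0.296 (both named after their values were seen). I14D, which puts a charge into strand beta1, scored -0.630 ± 0.0168 alone, and with K1T it scored -0.479 ± 0.0272 where the curve gave -0.679. I34S in strand beta3 scored -0.454 ± 0.0170 alone, and with K1T -0.319 ± 0.0284 where the curve gave -0.518. With K1A the same PDZ3 variant scored -0.370 ± 0.0338 where the curve gave -0.561. G27N scored -0.663 ± 0.0185 alone and -0.498 ± 0.0394 with K1L, and L21Q scored -0.656 ± 0.0170 alone and -0.478 ± 0.0347 with K1R. In each of these 5 pairs the double substitution scored above its PDZ3 single substitution. The pairs above the curve recurred at a few PDZ3 positions: of the 28, 6 were at I14, 5 at G27, 3 at I34 and 3 at G28. At each of these positions they all carried 1 PDZ3 substitution, namely I14D, G27N, I34S or G28V. Pairs of 1 PDZ3 substitution share its single score, so an error in that score moves all of them. The share of these substitutions among pairs above the curve at other ligand positions is not given here. Several K1 residues thus deviated with the same PDZ3 substitution, such as I14D. Of the 5 named pairs, only L21Q with K1R remained past the threshold after median deviations of each substitution were removed.

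Below the curve in listing A, the pairs with the lowest deviations relative to their errors were as follows, and again other pairs, such as E2Q with K1E at -0.191, deviated by more in score than the smallest of these. E2N with K1C scored -0.751 ± 0.138 where the curve gave -0.176, and I5S with K1L scored -0.507 ± 0.105 where it gave -0.0993. Both involve residues of the N-terminal tail whose single substitutions scored -0.0927 and -0.00438. Their pair errors of 0.138 and 0.105 compare with a median of 0.0437. E2Q with K1W scored -0.276 ± 0.0547 against -0.0329, G42L with K1V -0.144 ± 0.0274 against -0.0191, and I34E with K1I -0.602 ± 0.0463 against -0.411. The last of these starts from a PDZ3 substitution that scored -0.333 ± 0.0152 alone.

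In listing B the 4 pairs above the curve were A73R with K1R (-0.497 ± 0.0621 against -0.774), T83H with K1R (0.0824 ± 0.0317 against -0.0464), H70N with K1H (-0.337 ± 0.0796 against -0.654) and H70W with K1N (-0.386 ± 0.0983 against -0.774). A73R and H70W alone scored -0.867 and -0.840, below the stop median of -0.799 of this listing. H70N and T83H alone scored -0.634 and -0.0355. A73 and H70 lie in or beside the second helix and T83 in strand beta6, and a link with position was not tested. Of the 6 pairs below the curve, 3 carried K1N, the ligand whose single score lay above its pairs. K91I with K1N scored -0.191 ± 0.0298 against -0.0357, and Y95C with K1N -0.323 ± 0.0630 against -0.0619. The others named by the rule were T85K with K1M (-0.180 ± 0.0408 against 0.00917), Q72T with K1S (-0.143 ± 0.0319 against -0.0138) and I75D with K1A (-0.0997 ± 0.0312 against 0.0283). After the median deviation of each PDZ3 and each ligand substitution was removed, 5 of the 41 pairs of listing A and 0 of the 10 of listing B remained past the threshold. Of these 5, 3 also remained with the product of the singles: I25P with K1L, L21E with K1S and L21Q with K1R.

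Few K1 pairs grew better than wild type. In listing A 9240 pairs (69.1%) scored lower than wild type and 54 (0.404%) higher, and in listing B 9892 (56.5%) and 49 (0.280%). The shares over all sequences, including those with a stop codon, were 79.7% and 1.12% in listing A and 74.9% and 1.99% in listing B. K1R was the ligand in 16 of the 54 and 33 of the 49. The 54 pairs involved 19 PDZ3 substitutions and the 49 involved 40. Of the 54, 35 carried a substitution of G20, the first residue of the carboxylate-binding loop, and 10 one of E32. In listing B the most frequent positions were S69 with 11 and R66 with 10. Substitutions there without a ligand change already had median effects above 0: 0.0735 at G20, 0.0309 at E32, 0.0495 at S69 and 0.0490 at R66. The share of these positions among higher sequences with other ligands was not computed. Whether the counts are particular to K1 pairs was therefore not tested.

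The 3 highest pairs past the threshold in listing A were G20R with K1Q (0.206 ± 0.0855), G20M with K1R (0.152 ± 0.0460) and G20M with K1L (0.149 ± 0.0541). G20M alone scored 0.165 ± 0.0163, so its pairs did not exceed it, and G20R alone scored 0.0284 ± 0.101. In listing B they were R52V with K1R (0.178 ± 0.0856), S69E with K1M (0.146 ± 0.0425) and L51F with K1I (0.143 ± 0.0665). Their PDZ3 single substitutions scored 0.0437 ± 0.0139, 0.125 ± 0.0122 and 0.184 ± 0.0187. In 37 of the 54 pairs and 15 of the 49 the PDZ3 substitution alone scored above the pair.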

How the data were processed

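The authors deposited 1 fitness score and 1 error per amino acid sequence in each table, merged over 3 replicates. The submitters' processing notes name cutadapt and FastQC, and the steps from counts to score, the log base and the kind of error are not given in the sources used here. The depth per sample is therefore unknown, and precision is given by the deposited error. The planned count model could not be used on a score. K1 members were found by sequence in 3 of the 4 deposited tables. The C-terminal CRIPT library varies positions 5 to 8 and was not used here, nor were the wild-type control samples, to which no value was tied.

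Differences (variant minus wild type, pair minus its PDZ3 single substitution, residue minus residue, pair minus curve) were divided by the combined deposited errors. Two-sided normal p-values were adjusted by the Benjamini-Hochberg method over all such comparisons of a table or listing, at 0.05. They measure only the deposited error, and comparisons with wild type share its 1 value. The 49 and 6 K1 pairs whose PDZ3 single substitution was not listed were left out of the differences. Scripts ran in Python 3.11.15 with numpy 2.4.6, scipy 1.17.1, pandas 2.3.3 and scikit-learn 1.9.0 and were tested on simulated data.

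Members, residue classes, PDZ3 regions and tests were chosen with earlier results of these data known. The comparison of acidic minus arginine gaps between backgrounds, the contrast of residues 94 to 100 and 2 alternatives were added once the tables were known. Every K1 single substitution was named. Of pairs, the 5 with the highest and the 5 with the lowest deviation from the curve divided by its error, and the 3 highest above wild type in each listing were named, and of PDZ3 positions with at least 50 K1 pairs, the 3 lowest and 3 highest medians. Pairs named because they remained under 2 alternatives or for their deviation in score were chosen after their values were seen.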

Additional observations from a re-analysis of the deposited data

How the results depend on the processing

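No paired analysis was possible because the tables hold no values per replicate, and for the same reason no replicate could be left out in turn. Counts of K1 single substitutions past the threshold were 3, 3 and 4 in listing A, listing B and the pairwise library with the error added from all ligand single substitutions. With the error added from K1 substitutions alone listing B had 10. A shift of wild type by -0.0160 kept 19 of 19 in listing A. This shift is the median difference between listings over all 151 ligand single substitutions. The median over the K1 substitutions, -0.0283, is farther from 0 and was not used as a shift. Both alternatives were chosen after seeing the data. With 0 in place of wild type the N-terminal library had 2 in place of 0. K1 pairs differing from their PDZ3 single substitution numbered 5432 and 6784. They fell to 3318 and 4214 at a threshold of 0.01, and to 875 and 1003 with the error added from all ligand single substitutions. K1 pairs off the curve numbered 41 and 10. They were 19 and 2 at 0.01, 0 and 0 with the error added from all ligand single substitutions, 3 and 0 with that from K1 substitutions, and 6 and 1 after removal of median deviations. They were 178 and 174 with a plain sum in place of the curve, and 58 in listing B with the product of the singles. Among pairs with the lower errors, 9 lay above the curve and 20 below in listing A, where all pairs gave 28 and 13, and 1 and 9 in listing B. The median of the single effects, in place of the mean, was -0.0877 and -0.0598 in the 2 listings and -0.0960 in the pairwise library, and the mean without proline and glycine was -0.104 in listing A. The acidic minus arginine difference as a median over backgrounds of listing B was -0.163, against -0.156 on wild-type PDZ3. The causes of these changes were not tested, except that the added errors widen every error by construction. No direction of a mean or median effect reversed. The 76 medians per residue over near-neutral or lower-error backgrounds moved by less than the spread over backgrounds. That limit is wide for medians taken over a part of the same pairs, so it says little about their stability.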
